A study of Mus musculus with 12 samples.

Results

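The genes described here were 10 mouse glutathione S-transferases, Gsta3, Gsta4, Gstm1, Gstm2, Gstm5, Gstm6, Gstp1, Gstt1, Gstt2 and Gsto1. A gene was read from each array probe that the platform annotation names for that gene and for no other. By this rule 8 of the 10 genes were measured, each by 1 probe, among 36227 probes in all, of which 21615 were named for a single gene. Gstm6 and Gstp1 each appeared on 1 probe that also names another gene, so no value is given for them, and a second, shared probe of Gstm2 was left out for the same reason. All 8 measured genes were among the 31355 probes that passed the filter on low values and were tested.

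Ovaries of 12 female mice were hybridized to CodeLink mouse whole genome arrays, 1 mouse per array and 3 mice in each of 4 groups. The groups were black mice (a/a) and lethal yellow mice (LY, Ay/a) at 90 days of age and black and LY mice at 180 days, on a background that the sample labels write as C56BL/6J and the series text as C57BL/6J. All mice, controls included, received the GnRH antagonist Antide at 10 μg per g on days 1 and 4 and then equine chorionic gonadotropin (eCG), a hormone that drives follicle growth, at 1 IU per 5 g of body weight, and ovaries were taken on day 7. The Ay allele is a deletion that places agouti under the promoter of the neighbouring gene Raly in every tissue, so agouti is expressed in the ovary itself as well as in the rest of the animal, and a local and a systemic effect cannot be told apart in these groups. Agouti rose from 0.294 ± 0.109 units in 180-day black mice to 103 ± 7.36 units in 180-day LY mice and from 0.295 ± 0.0165 to 97.2 ± 1.79 units at 90 days (SD, n = 3), which matched the labels on all 12 arrays.

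Values are relative intensity units, with the median probe of each array at 1 and a limit of sensitivity of 0.2 units stated by the authors. Log2 values of 2 arrays correlated at 0.970 to 0.987 where group was shared, at 0.962 to 0.984 where only age was shared and at 0.918 to 0.938 otherwise. The 180-day arrays were run first and the 90-day arrays later, and any difference between 180 and 90 days is therefore one of age or of array set, which cannot be told apart. The array of 90-day black replicate 1 stood apart on the second principal component, at 68.6 against 8.26 and -5.01 in its group. Granulosa markers summed to between 191 and 450 units and oocyte markers to between 45.8 and 87.1 units, while hepatocyte markers summed to at most 6.18 units and oviduct markers to at most 8.96 units. In RNA of a whole ovary, fewer cells of a type and less RNA per cell cannot be told apart.

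Glutathione S-transferases join the tripeptide glutathione to electrophilic compounds, among them drugs, epoxides and the aldehydes formed when lipids are oxidized, and so make them easier to export from the cell. The cytosolic enzymes act as dimers and are sorted by sequence into classes that are named by Greek letters, including alpha, mu, pi, theta and omega, and several of their genes are induced by the transcription factor NRF2 through antioxidant response elements. In the ovary, alpha class enzymes are known from steroid-producing cells, where they have been studied both as detoxifying enzymes and for their binding of hydrophobic ligands.

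Between LY and black mice no glutathione S-transferase passed the test at either age. At 180 days the 8 log2 differences (LY minus black) ran from -0.14 for Gstt2 to 0.68 for Gsta3, with a median of -0.02 against 0.03 over all probes tested. At 90 days they ran from -0.63 for Gsto1 to 0.41 for Gstt2, with a median of 0.19 against -0.00 over all probes tested. limma with the Benjamini-Hochberg adjustment over all probes tested called 0 of 8 genes at 180 days, where 0.0446% of all probes tested were called, and 0 of 8 at 90 days, where the share of all probes was also 0.0446%. At an unadjusted p under 0.05 limma gave 1 gene at 180 days (Gsta3), where 12% of all probes lay under that limit, and 2 genes at 90 days (Gstt1 and Gsto1), where 13.3% did. Before adjustment the methods' t-test gave 2 genes at 180 days (Gsta3 and Gsto1), where 13.4% of all probes lay under the same limit, and 0 at 90 days, where 8.92% did. After the Benjamini-Hochberg adjustment it gave 0 at both ages, beside 0% and 0.00319% of all probes. At 180 days 2 of 8 genes (Gsta3 and Gsto1) had all LY values above all black values, as did 14.2% of the probes with complete values, and 0 of 8 had all below, as did 8.36%. At 90 days 1 gene (Gstt1) had all above, as did 6.9% of the probes, and 0 had all below, as did 9.56%. Raly, the neighbour of agouti, was also not called by limma, at 0.57-fold in LY against black mice at 180 days (adjusted p = 0.169). At 90 days it was 0.60-fold (limma adjusted p = 0.170), and at both ages all LY values of Raly lay below all black values. The plot of differences between genotypes shows the estimate of each glutathione S-transferase with its interval.

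**Figure D1:**
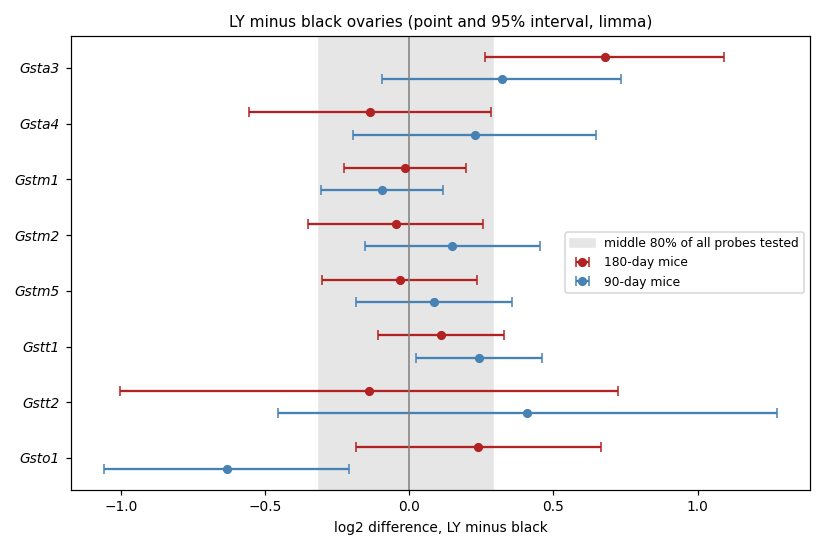
Difference in log2 relative intensity between LY and black ovaries for the 8 measured glutathione S-transferases (points, with 95% intervals from limma) at 180 days (red) and 90 days (blue), with the middle 80% of all probes tested shaded. Gsta3 at 180 days (0.68) and Gsto1 at 90 days (-0.63) lie outside the shaded range and have intervals that leave out 0, and no difference passed the adjusted test.

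Gsta3 is an alpha class enzyme known in mouse liver for conjugating the epoxide of the mould toxin aflatoxin. Its relative intensity in 180-day black mice was 5.47, 5.68 and 6.01 units and in 180-day LY mice 7.26, 11.2 and 9.41 units. In 90-day mice it was 1.95, 2.80 and 2.28 units in black and 3.56, 2.57 and 2.65 units in LY animals. All 3 LY values lay above all 3 black values at 180 days, whereas the groups overlapped at 90 days. The LY minus black difference at 180 days was 0.68 on the log2 scale (SE 0.19, 95% interval 0.26 to 1.09, a 1.60-fold difference, unadjusted p = 0.00427), and it did not pass after adjustment (limma adjusted p = 0.218). At 90 days it was 0.32 (SE 0.19, limma adjusted p = 0.498), and the test of whether the genotype difference itself changed with age gave an interaction of 0.36 (SE 0.26, limma adjusted p = 0.636).

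The summed marker levels of 5 of 13 cell type lists also lay apart between the genotypes at 180 days. The 11 granulosa markers measured summed to 269 to 353 units in 180-day black mice and to 191 to 257 units in 180-day LY mice. Of their LY minus black differences 10 were negative and 1 positive, beside 44.1% negative over all probes, and 0 of 11 were called. Oocyte markers summed to 65.9 to 87.1 and 45.8 to 64.2 units, and surface epithelium markers to 73.4 to 76.1 and 56.3 to 69.1 units. The 2 red blood cell markers measured summed to 2.12 to 2.47 units in black and 2.81 to 4.14 units in LY mice. None of the tested genes of these 3 lists was called. The 4 adrenal cortex markers measured summed to 32.7 to 39.2 units in black and 59.6 to 70.1 units in LY mice, with 0 of 4 called. That sum was carried by Mrap, the accessory protein of the ACTH receptor, at 35.2 ± 3.27 and 64.1 ± 5.19 units (SD, n = 3), while the defining adrenal enzymes were low. Cyp21a1 lay at 0.116 ± 0.121 and 0.157 ± 0.00880 units, under the limit of sensitivity on 2 of 3 black and 3 of 3 LY arrays, and Cyp11b2 lay above the limit on every array at 0.381 ± 0.0681 and 0.524 ± 0.0887 units. All 4 markers had positive LY minus black differences. The 8 theca and steroidogenic markers measured summed to 647 to 767 units in black and 709 to 928 units in LY mice, which overlapped. Of their differences 7 were positive and 1 negative, beside 55.9% positive over all probes, and 0 were called. The part of these cells in the Gsta3 difference was not tested.

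Both alpha class genes were higher on the 180-day arrays than on the 90-day arrays in each genotype. Gsta3 was 2.47-fold higher at 180 days in black mice (log2 difference 1.30, SE 0.19, limma adjusted p = 0.00025) and 3.16-fold higher in LY mice (1.66, SE 0.19, limma adjusted p = 4.77e-05), with no overlap between the ages. Gsta4, which clears hydroxynonenal, an aldehyde formed when membrane lipids are oxidized, read 45.8, 38.4 and 39.5 units in 180-day black mice and 13.1, 18.8 and 16.0 units in 90-day black mice. In LY mice it read 44.9, 36.7 and 31.8 units at 180 days and 20.9, 21.2 and 14.4 units at 90 days. Every 180-day value exceeded every 90-day value, by 2.60-fold in black mice (log2 difference 1.38, SE 0.19, limma adjusted p = 0.000193) and by 2.02-fold in LY mice (1.01, SE 0.19, limma adjusted p = 0.00138). Between genotypes the Gsta4 groups overlapped at both ages, with differences of -0.14 at 180 days (95% interval -0.56 to 0.28) and 0.23 at 90 days (-0.19 to 0.65).

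**Figure D2:**
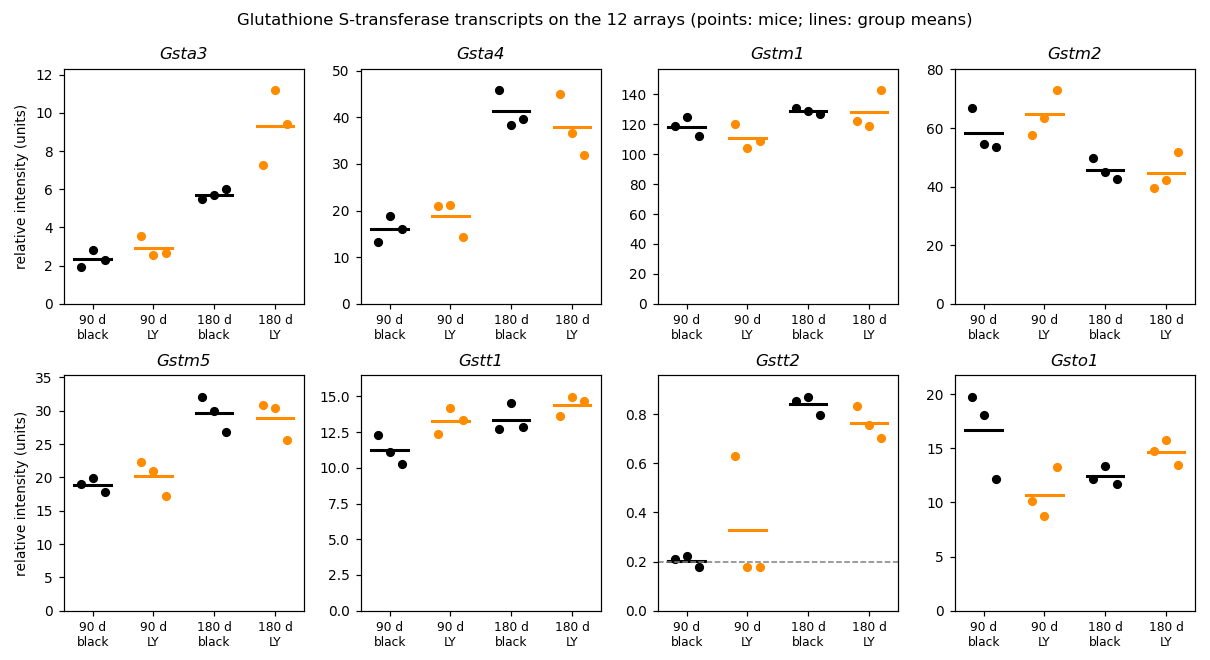
Relative intensity (units, linear axes starting at 0) of the 8 measured glutathione S-transferases in each of the 12 ovaries, with points for single mice, lines for group means, black for black mice and orange for LY mice, and a dashed line at the 0.2-unit limit of sensitivity in the Gstt2 panel. Gsta3, Gsta4, Gstm5 and Gstt2 sit higher in both 180-day groups, Gstm2 sits lower, and the Gsto1 mean is higher in LY than in black mice at 180 days and lower at 90 days.

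Among the mu class genes, Gstm5 was higher at 180 days and Gstm2 was lower, while Gstm1 did not pass the test in either genotype. Gstm1, a major mu class enzyme of mouse liver that conjugates epoxides and aromatic electrophiles, read 131, 129 and 127 units in 180-day black mice and 122, 119 and 143 units in 180-day LY mice. At 90 days it read 119, 125 and 112 units in black and 120, 104 and 109 units in LY mice. Its age difference was 0.12 in black mice (SE 0.10, limma adjusted p = 0.316) and 0.20 in LY mice (SE 0.10, limma adjusted p = 0.104), and both turned negative under quantile normalization (-0.04 and -0.23). The genotype difference of Gstm1 was -0.01 at 180 days (95% interval -0.22 to 0.20) and -0.09 at 90 days (-0.30 to 0.12).

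Gstm2, a mu class enzyme encoded beside Gstm1, read 49.9, 44.9 and 42.5 units in 180-day black mice and 66.7, 54.7 and 53.5 units in 90-day black mice. In LY mice it read 39.5, 42.2 and 51.8 units at 180 days and 57.6, 63.4 and 73.0 units at 90 days. Every 180-day value was below every 90-day value of the same genotype. The difference passed the test in LY mice (log2 difference -0.54, SE 0.14, limma adjusted p = 0.00814) and did not in black mice (-0.35, SE 0.14, limma adjusted p = 0.0612), and the test of whether the 2 differences differ, the interaction, did not pass (-0.20, SE 0.19, limma adjusted p = 0.734). The black difference passed in 7 of 26 alternatives, the methods' t-test without adjustment among them, and the LY difference in 25 of 26, the exception being the methods' t-test after adjustment. Quantile normalization gave the black difference its largest size (-0.98, limma adjusted p = 2.44e-05). Between genotypes Gstm2 differed by -0.05 at 180 days (95% interval -0.35 to 0.26) and 0.15 at 90 days (-0.15 to 0.45), with overlap at both ages.

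Gstm5, a mu class enzyme known from brain and testis, read 32.1, 29.9 and 26.8 units in 180-day black mice and 30.9, 30.4 and 25.6 units in 180-day LY mice. On the 90-day arrays it read 19.0, 19.9 and 17.8 units in black and 22.3, 20.9 and 17.2 units in LY mice. The genotypes overlapped at each age (differences -0.03 and 0.09), and the ages did not overlap. Gstm5 was 1.56-fold higher at 180 days in black mice (log2 difference 0.64, SE 0.12, limma adjusted p = 0.00152) and 1.44-fold higher in LY mice (0.53, SE 0.12, limma adjusted p = 0.00506). In LY mice the call was lost in 1 of 26 alternatives, the methods' t-test after adjustment.

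The mu class genes form 1 cluster on chromosome 3, where the RefSeq annotation of GRCm38.p6 gives the order Gstm5, Gstm7, Gstm6, Gstm3, Gstm2, Gstm1 and Gstm4. In black mice the log2 difference (180 days minus 90 days) was 0.64 for Gstm5, 0.38 for Gstm7, 1.26 for Gstm3, -0.35 for Gstm2, 0.12 for Gstm1 and -0.09 for Gstm4. In the same order it was 0.53, 0.65, 0.74, -0.54, 0.20 and 0.26 in LY mice. Gstm5, Gstm7 and Gstm3 passed the test in both genotypes as higher (limma adjusted p at most 0.0149), Gstm2 passed in LY mice as lower, and Gstm1 and Gstm4 passed in neither genotype. Gstm6, which lies between Gstm7 and Gstm3, has no value. These genes are close relatives, and how far each probe distinguishes them cannot be read from the files, which hold no probe sequence.

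**Figure D3:**
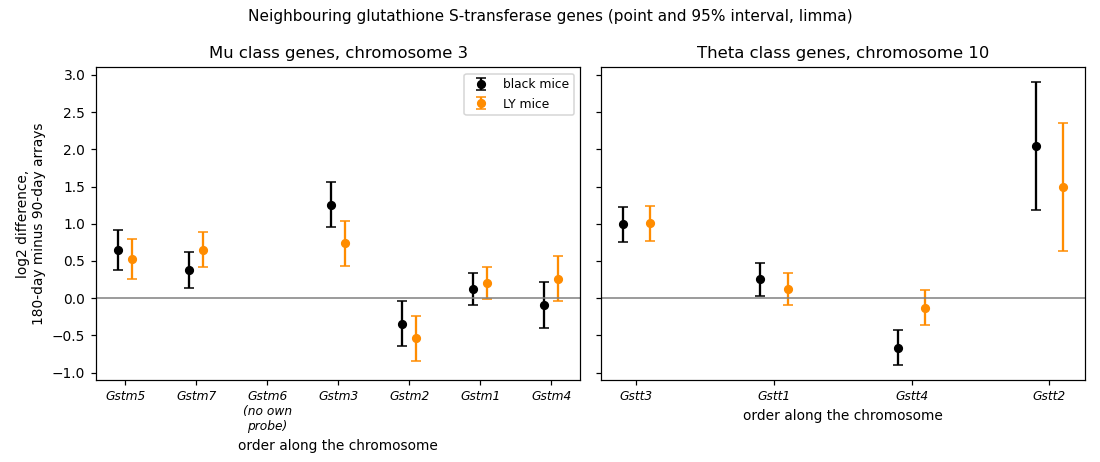
Difference in log2 relative intensity between 180-day and 90-day arrays (points, with 95% intervals from limma) for mu class genes on chromosome 3 (left) and theta class genes on chromosome 10 (right), placed by their order along the chromosome and not to distance, in black mice (black) and LY mice (orange). Gstm2 lies below 0 and Gstm5, Gstm7 and Gstm3 lie above 0 in both genotypes, and Gstt2 and Gstt3 lie highest at the ends of the theta row.

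Upstream sequence was read for the age differences, because neighbouring genes of the mu cluster and members on other chromosomes differed on the same arrays. The antioxidant response element core TGACNNNGC, the letters recognized by NRF2 with its small MAF partners, was searched on both strands of the 250 bases before each RefSeq transcript start of GRCm38.p6. It was present in 10.2% of all 32851 such windows and, counted by gene, in at least 1 window of 11.5% of 27025 genes. Of the 10 genes 8 had a window, those without being Gsta4 and Gstt2, and 2 of these 8 held the core, Gsta3 and Gstm5. Gstm6 and Gstp1 have a window but no expression value. Gsta4 and Gstt2, the other genes called higher at 180 days in both genotypes, have a value but no window. Gsta3 and Gstm5 were among the genes that were higher at 180 days, and the match is a description of these letters only. The windows of these genes and, for comparison, of the mu neighbours Gstm2 and Gstm1 are printed 5′ to 3′ on the gene's strand, with the core in capitals where it occurs. They lie at chr1:21240335-21240584 (plus strand) for Gsta3, chr3:107895604-107895853 (plus strand) for Gstm5, chr3:107986421-107986670 (minus strand) for Gstm2 and chr3:108017974-108018223 (minus strand) for Gstm1, the last before the outermost of its annotated starts. The core ends 112 bases before the transcript start in Gsta3 and 33 bases before it in Gstm5.
Gsta3: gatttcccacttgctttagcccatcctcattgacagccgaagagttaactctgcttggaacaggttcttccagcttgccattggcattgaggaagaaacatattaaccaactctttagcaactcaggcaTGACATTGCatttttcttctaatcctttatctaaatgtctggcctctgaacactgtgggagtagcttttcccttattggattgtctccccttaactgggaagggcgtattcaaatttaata
Gstm5: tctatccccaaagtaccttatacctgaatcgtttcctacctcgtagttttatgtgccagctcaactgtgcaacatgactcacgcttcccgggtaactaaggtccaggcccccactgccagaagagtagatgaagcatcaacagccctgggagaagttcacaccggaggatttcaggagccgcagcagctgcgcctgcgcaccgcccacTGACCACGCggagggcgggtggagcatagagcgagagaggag
Gstm2: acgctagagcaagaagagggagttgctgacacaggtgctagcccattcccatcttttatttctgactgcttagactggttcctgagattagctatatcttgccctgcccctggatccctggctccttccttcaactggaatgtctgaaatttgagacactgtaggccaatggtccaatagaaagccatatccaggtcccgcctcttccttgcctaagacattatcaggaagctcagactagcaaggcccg
Gstm1: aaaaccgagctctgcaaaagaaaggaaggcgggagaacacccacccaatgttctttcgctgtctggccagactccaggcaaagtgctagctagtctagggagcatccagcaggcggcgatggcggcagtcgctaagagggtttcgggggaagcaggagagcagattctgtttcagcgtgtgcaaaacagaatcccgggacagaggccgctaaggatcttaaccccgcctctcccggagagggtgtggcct

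The theta class genes differed in how far they stood apart between ages. Gstt1, a theta class enzyme that acts on small halogenated hydrocarbons, read 12.7, 14.6 and 12.9 units in 180-day black mice and 13.6, 15.0 and 14.7 units in 180-day LY mice. At 90 days it read 12.3, 11.1 and 10.3 units in black and 12.3, 14.2 and 13.3 units in LY mice. At 90 days all LY values lay above all black values, although the lowest LY and the highest black value both round to 12.3 units. The difference was 0.24 (SE 0.10, 95% interval 0.02 to 0.46, unadjusted p = 0.0329) and did not pass after adjustment (limma adjusted p = 0.329). The age difference of Gstt1 was 0.25 in black mice (SE 0.10, limma adjusted p = 0.0578) and 0.12 in LY mice (SE 0.10, limma adjusted p = 0.342), and the former passed in 6 of 26 alternatives, the lowest adjusted p being 0.0256.

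Gstt2, a theta class enzyme active on organic hydroperoxides, was near the limit of sensitivity at 90 days and above it at 180 days. In black mice it read 0.854, 0.870 and 0.797 units at 180 days and 0.212, 0.221 and 0.179 units at 90 days. In LY mice it read 0.833, 0.756 and 0.703 units at 180 days and 0.629, 0.176 and 0.178 units at 90 days. Replicate 1 of the 90-day LY mice thus stood well above the other 5 young animals. The age difference was 2.05 in black mice (SE 0.39, limma adjusted p = 0.00158) and 1.50 in LY mice (SE 0.39, limma adjusted p = 0.00944), and since 1 of the 3 black and 2 of the 3 LY arrays at 90 days were under 0.2 units, these folds depend on values at the limit. In LY mice the methods' t-test did not call it (adjusted p = 0.131 after Benjamini-Hochberg), while without that replicate limma gave 2.11 (adjusted p = 7.68e-06). The LY minus black difference at 90 days, 0.41 (SE 0.39, limma adjusted p = 0.699), became -0.20 without replicate 1.

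On chromosome 10 the annotation gives the order Gstt3, Gstt1, Gstt4 and Gstt2. Gstt3 was higher at 180 days by 0.99 in black and 1.01 in LY mice (SE 0.11 each, limma adjusted p at most 3.2e-05). Gstt4 was lower at 180 days in black mice (-0.67, SE 0.11, limma adjusted p = 0.000555), with -0.13 in LY mice (SE 0.11, limma adjusted p = 0.355). The theta genes therefore gave age differences of both signs in black mice, as the plot of neighbouring genes shows.

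Gsto1 is an omega class enzyme that reduces dehydroascorbate and mixed disulfides in place of the usual conjugation. At 180 days it read 12.2, 13.3 and 11.7 units in black and 14.8, 15.7 and 13.5 units in LY mice, so the LY values lay above the black values without overlap. At 90 days it read 19.8, 18.1 and 12.1 units in black and 10.1, 8.72 and 13.3 units in LY mice, where the groups overlapped through replicate 3 of each genotype. The LY minus black difference was 0.24 at 180 days (SE 0.19, limma adjusted p = 0.662) and -0.63 at 90 days (SE 0.19, 95% interval -1.06 to -0.21, unadjusted p = 0.00763, limma adjusted p = 0.211). The interaction of genotype and age was 0.87 (SE 0.27, unadjusted p = 0.0088) and did not pass after adjustment (limma adjusted p = 0.228), as was true of all 8 genes and of all 31355 probes tested, of which 0% were called and 12.1% lay under an unadjusted p of 0.05. Leaving out 90-day black replicate 1, the array that stood apart, gave -0.49 at 90 days (limma adjusted p = 0.358). Between the ages Gsto1 differed by -0.40 in black mice (SE 0.19, limma adjusted p = 0.115) and by 0.47 in LY mice (SE 0.19, limma adjusted p = 0.0641), and these passed in 1 and 6 of 26 alternatives.

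Gsto2, the other omega class gene and the neighbour of Gsto1 on chromosome 19, read 8.27, 9.73 and 7.31 units in 180-day black and 11.0, 11.7 and 9.03 units in 180-day LY mice. At 90 days it read 11.3, 11.7 and 10.1 units in black and 7.01, 5.90 and 7.68 units in LY mice, where every LY value was below every black value. Its LY minus black difference was 0.33 at 180 days (SE 0.14) and -0.69 at 90 days (SE 0.14, limma adjusted p = 0.105), with an interaction of 1.02 (SE 0.20, limma adjusted p = 0.107). With an intensity trend in limma the Gsto2 difference at 90 days passed (adjusted p = 0.0385), as did its interaction (adjusted p = 0.0343). That setting called 0.638% of all probes at 90 days and 0.631% in the interaction. Over the 12 arrays the log2 values of Gsto1 and Gsto2 correlated at r = 0.889, and their deviations from the group means at r = 0.742, arrays that share group and array set for the former and 3 animals per group for the latter. By the first measure Gsto2 ranked 8 among 16081 genes compared with Gsto1.

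The summed marker levels of 4 of 13 cell type lists lay apart between the genotypes at 90 days, as Gsto2 did. The 5 luteal markers measured summed to 79.3 to 112 units in 90-day black mice and to 41.2 to 58.9 units in 90-day LY mice, while at 180 days they overlapped at 42.1 to 85.9 and 41.7 to 51.2 units. Of the 5 markers 5 had negative LY minus black differences at 90 days and 0 were called (smallest limma adjusted p = 0.0774, for Hsd17b7, an enzyme of steroid and cholesterol synthesis). Surface epithelium markers summed to 46.2 to 59.7 units in 90-day black and 40.9 to 43.3 units in 90-day LY mice, oviduct markers to 5.72 to 8.96 and 4.82 to 5.10 units, and adrenal cortex markers to 42.7 to 50.2 and 30.9 to 41.7 units, with 0 genes called in each. The adrenal sum was again carried by Mrap, at 44.4, 49.7 and 42.2 units in black and 32.5, 30.4 and 40.9 units in LY mice. Of the 4 adrenal cortex markers 3 had positive LY minus black differences at 90 days, and Mrap alone was negative. The part of these cells in the omega difference was not tested.

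**Figure D4:**
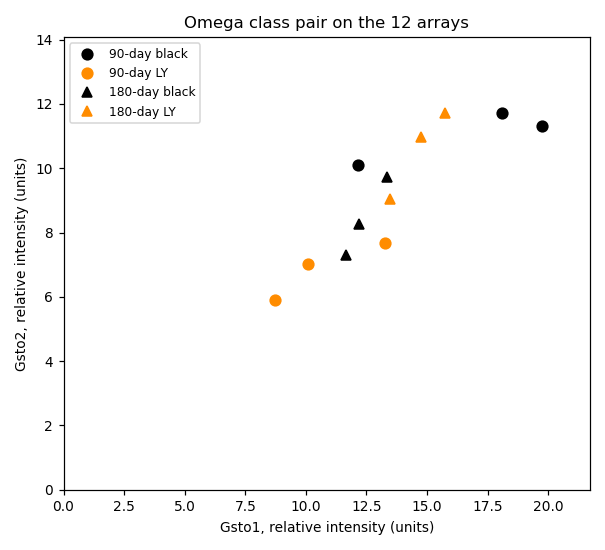
Relative intensity (units, linear axes) of Gsto1 against its neighbour Gsto2 in the 12 ovaries, with circles for 90-day and triangles for 180-day mice, black for black mice and orange for LY mice. The 90-day LY mice lie at the lower left, with Gsto2 at 5.90 to 7.68 units, and the 90-day black mice reach furthest to the upper right, with Gsto1 up to 19.8 units.

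Across the 8 genes, the 180-day arrays were higher than the 90-day arrays more often than lower. In black mice 4 of 8 genes were called higher (Gsta3, Gsta4, Gstm5 and Gstt2) and 0 lower, 50% in all, beside 46.8% of all probes tested, of which 25.9% were higher and 20.9% lower. In LY mice the same 4 genes were called higher and Gstm2 lower, 62.5% in all, beside 47.2% of all probes tested, of which 27.9% were higher and 19.3% lower. The 4 genes called higher in both genotypes were 50% of the 8, beside 20.5% of all probes tested. In black mice 6 of 8 genes had all 180-day values above all 90-day values (30.7% of the probes with complete values) and 1 had all below (25.2%), and in LY mice 5 had all above (34.1%) and 1 all below (24.6%). The median age difference of the 8 genes was 0.45 in black and 0.50 in LY mice, against 0.04 and 0.08 over all probes tested. With 8 genes, the share called in either genotype did not stand far from that of all probes, and the 2 age comparisons use different mice but the same pair of array sets.

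**Figure D5:**
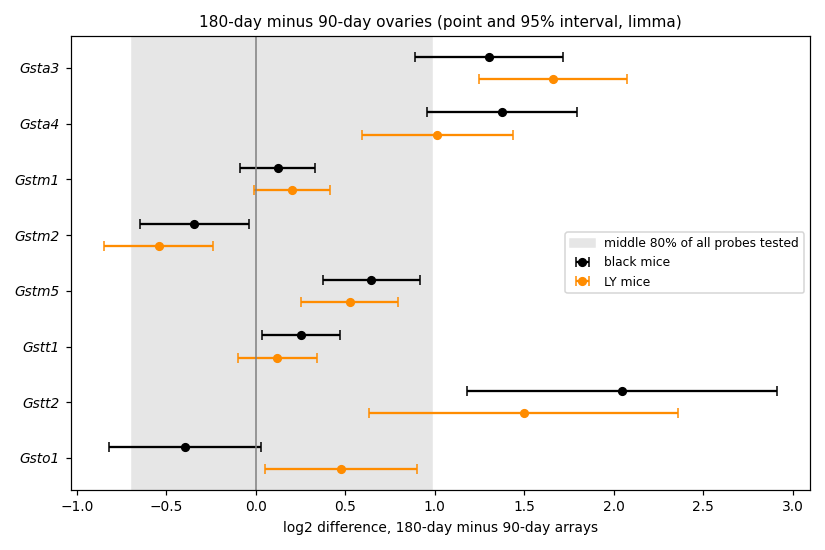
Difference in log2 relative intensity between 180-day and 90-day arrays for the 8 measured glutathione S-transferases (points, with 95% intervals from limma) in black mice (black) and LY mice (orange), with the middle 80% of all probes tested shaded. Gsta3, Gsta4 and Gstt2 lie beyond the upper edge of the shaded range in both genotypes, and Gsto1 lies at -0.40 in black mice and 0.47 in LY mice.

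Cell type markers differed between the ages as well, and the summed levels of 4 of 13 lists in black and 8 of 13 in LY mice lay apart. In black mice these were the surface epithelium, red blood cell, adrenal cortex and hepatocyte lists. In LY mice the granulosa, oocyte, oviduct and endothelium lists lay apart as well, and the adrenal cortex sum was higher at 180 days but lower in black mice. Surface epithelium markers summed to 73.4 to 76.1 units in 180-day and 46.2 to 59.7 units in 90-day black mice, and to 56.3 to 69.1 and 40.9 to 43.3 units in LY mice. The largest share of that sum was Lgals7, a galectin of epithelia, at 35.0 ± 4.53 and 15.0 ± 2.43 units in black mice and 29.3 ± 2.00 and 15.7 ± 1.47 units in LY mice (SD, n = 3). Of the 9 surface epithelium markers 2 were called higher and 2 lower in black mice, where 6 had negative differences. LY mice had 4 called higher and 1 lower. In all, 44.4% and 55.6% of the list were called, beside 46.8% and 47.2% of all probes. Of the 11 granulosa markers measured 2 were called lower at 180 days in black mice and 7 in LY mice, with 0 higher (18.2% and 63.6% called lower, beside 20.9% and 19.3% of all probes). Of the 6 macrophage and leukocyte markers measured 3 were called higher in black and 4 in LY mice, with 0 lower (50% and 66.7% called higher, beside 25.9% and 27.9% of all probes). The summed levels of this last list overlapped between the ages in both genotypes. The part of these cells in the age differences of the glutathione S-transferases was not tested.

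The 8 genes did not vary as a block. Of the 28 pairs 17 had a positive correlation of log2 values over the 12 arrays, from r = -0.86 between Gsta4 and Gstm2 to r = 0.970 between Gsta4 and Gstm5, values that share group, age and array set. After subtraction of the group means 14 of the 28 pairs were positive, and the same pairs marked the ends, at -0.71 and 0.77. The gene most like each member over the 12 arrays was Coro6 for Gsta3 (r = 0.977), Rnf113a2 for Gsta4 (0.985), Ifnab for Gstm1 (0.945), Shld1 for Gstm2 (0.957), Taf15 for Gstm5 (0.977), 4930568G15Rik for Gstt1 (0.940), Hoxd9 for Gstt2 (0.970) and Endod1 for Gsto1 (0.973), each the highest among 16081 genes. Gsta4 ranked second among the genes most like Gstm5. These top matches also share group, age and array set, and many genes came close. Above r = 0.95 lay 109 genes for Gsta4, 45 for Gsta3, 31 for Gstm5 and 17 for Gstt2. For Gstm2 there were 3, for Gsto1 2, and for Gstm1 and Gstt1 0. After subtraction of the group means a different gene ranked first for each of the 8.

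Other genes of glutathione metabolism, and those of the related redox, NRF2, xenobiotic and transferase-like fold lists, also gave 0 calls between genotypes. Of 107 listed genes 91 were tested, and limma called 0 at 180 days (smallest adjusted p = 0.154, for Mars1, a methionyl-tRNA synthetase with a transferase-like fold), 0 at 90 days (0.0837, for Clic3, a chloride channel protein of the same fold) and 0 in the interaction (0.0921, for Txnrd2, the mitochondrial thioredoxin reductase). LY values were the higher ones for 66 of these 91 genes at 180 days (72.5%, beside 55.9% of all probes) and the lower ones for 66 of 91 at 90 days (72.5%, beside 50.9% of all probes). The interaction was positive for 69 of 91 (75.8%, beside 54.1%). The group of peroxidases, thioredoxins and peroxiredoxins also held superoxide dismutases and catalase. In this group 17 of 20 were the lower ones in LY mice at 90 days and 15 of 20 the higher ones at 180 days. Of the 8 measured members, LY values were the higher ones for 3 at 180 days and for 6 at 90 days. No test of these counts was made, since genes of the same arrays are not independent.

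Of the 13 other glutathione S-transferase genes tested, 6 were called higher and 3 lower at 180 days in black mice and 9 higher and 1 lower in LY mice (69.2% and 76.9% in all, beside 46.8% and 47.2% of all probes). Mgst1, a membrane-bound transferase of the endoplasmic reticulum and outer mitochondrial membrane, was higher by 0.89 in black mice (limma adjusted p = 5.68e-05) and 1.43 in LY mice (2.5e-06). Hpgds, the prostaglandin D synthase of the sigma class, was higher by 1.69 (limma adjusted p = 0.00157) and 2.06 (0.000446), from a level at the limit of sensitivity in 90-day mice. Mgst3, a microsomal transferase and peroxidase, was lower by 0.66 (limma adjusted p = 0.0187) and by 0.52 (0.0487). Gsto2 was called in both genotypes with opposite signs, -0.40 in black mice (limma adjusted p = 0.0431) and 0.62 in LY mice (0.00495), while the interaction did not pass in the test given above.

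Enzymes that supply and use glutathione were called in both directions between the ages. Of the 15 genes of glutathione synthesis and recycling tested, 4 were called higher and 3 lower at 180 days in black mice and 5 higher and 4 lower in LY mice (46.7% and 60% in all, beside 46.8% and 47.2% of all probes). Gsr, the reductase that regenerates glutathione, was lower by 2.33 in black mice (limma adjusted p = 5.11e-06) and by 1.90 in LY mice (2.07e-05). The subunits of glutamate-cysteine ligase, the first step of glutathione synthesis, were not called, with -0.09 and -0.18 for Gclc and -0.00 and 0.10 for Gclm.

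Of the 20 genes tested in the group of peroxidases, thioredoxins and peroxiredoxins, 3 were called higher and 8 lower at 180 days in black mice and 6 higher and 3 lower in LY mice (55% and 45% in all, beside 46.8% and 47.2% of all probes). Txn2, the mitochondrial thioredoxin, was lower by 1.30 in black mice (limma adjusted p = 2.21e-06) and by 0.91 in LY mice (1.84e-05). Glrx2, a glutaredoxin of mitochondria, was higher by 0.71 (limma adjusted p = 0.000238) and 1.12 (1.08e-05).

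Of the 22 NRF2 regulators and targets tested other than glutathione S-transferases, 8 were called higher and 7 lower in black mice and 9 higher and 6 lower in LY mice (68.2% in all in each genotype, beside 46.8% and 47.2% of all probes). Nqo1, a quinone reductase that is a standard NRF2 target, was lower at 180 days by 1.80 in black mice (limma adjusted p = 4.65e-06) and by 1.73 in LY mice (6.08e-06). Keap1, which holds NRF2 in the cytoplasm, was higher by 1.14 (limma adjusted p = 0.000194) and 1.29 (8.2e-05), and Hmox1, the inducible haem oxygenase, was higher by 0.65 (0.000682) and 0.59 (0.00129).

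The remaining lists were smaller, and the shares of all probes to set beside them are again 46.8% in black and 47.2% in LY mice. Of the 10 genes of ligand-activated xenobiotic receptors and their targets tested, 2 were called higher and 5 lower in black mice (70% in all) and 1 higher and 4 lower in LY mice (50%), with Ahr, the aryl hydrocarbon receptor, at -0.46 (limma adjusted p = 0.0388) and -1.03 (0.000452). Of the 7 genes of conjugate export and mercapturate formation tested, 1 was called higher and 4 lower in black mice (71.4%) and 1 higher and 2 lower in LY mice (42.9%), with the conjugate exporter Abcc1 higher by 0.27 (limma adjusted p = 0.0129) and 0.40 (0.00136). Of the 13 tested genes with a transferase-like fold, 3 were called higher and 6 lower in black mice (69.2%) and 3 higher and 4 lower in LY mice (53.8%).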

How the data were processed

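RNA of whole ovaries was hybridized to one-colour CodeLink arrays, 1 per mouse. Per the methods, the authors corrected each spot for background with the CodeLink software and scaled and normalized the slides in GeneSpring, and the deposited values are linear intensity values with an array median near 1. Precision is limited by the number of arrays. For the values given here, intensities were divided by the median of their array, floored at 0.01 units and converted to log2. Probes were tested where at least 2 arrays of each group had a value and at least 1 group mean reached 0.2 units, which left 31355 of 36227. A model of the 4 group means was fitted over the 12 arrays with limma 3.58.1 (R 4.3.3), and p-values were adjusted by Benjamini-Hochberg over all probes tested with a threshold of 0.05. Fold changes are on the floored log2 scale, and for dim probes they move with the floor.

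Probes were named from the platform annotation, with symbols checked against RefSeq gene identifiers, and a gene with several probes was read from the brightest. Replicates were separate mice. The members, gene lists, marker lists and alternatives were chosen with earlier results of these data known. The lists name for the text their genes with the smallest p between genotypes. Between ages up to 3 genes per list were named, and these were not always the ones with the smallest p. Mgst3 was not among the smallest of its list. Genes of smallest p left unnamed above were Aldh3a1 (black) and Rxra (LY) of the xenobiotic list and Abcc3 (black) of the export list. Further genes (Gclc, Gclm, Hmox1, Ahr, Abcc1, Gstm4, Gstm7, Gstt4, Cyp21a1, Cyp11b2 and Lgals7) were chosen after their values were seen. Replicate numbers were not used to pair the samples in the main fit. Deviations of same-numbered mice from their group means correlated at -0.0727 to 0.148, with no differently numbered mice compared. The procedure was tested on simulated data. Alternatives were other floors, pseudocounts, scalings and filters, an intensity trend, robust estimation, array weights, fits within 1 age, the methods' t-test, a replicate block and leaving out each array.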

Additional observations from a re-analysis of the deposited data

How the results depend on the processing

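No member passed the adjusted limma test between genotypes, or in the interaction, under any setting tried, and the methods' unadjusted t-test gave 2 at 180 days, beside 13.4% of all probes. Between ages the number of members called ran from 4 to 6 in black mice over all settings and from 5 to 6 in LY mice over those that left out 1 array, with 2 in LY mice for the methods' t-test after adjustment, which called 38.8% of all probes and lost Gstm2, Gstm5 and Gstt2. The replicate block gave 0, 0, 0, 4 and 5 members called in the 5 comparisons and changed no member's call. Small differences changed sign. Under quantile normalization Gstm1 turned to 0.041 between genotypes at 90 days, -0.19 in the interaction, -0.038 between ages in black and -0.23 in LY mice, and Gstm5 turned to 0.0097 at 180 days with array weights. With 1 array left out, the genotype difference at 180 days ran from -0.10 to 0.0352 for Gstm1, from -0.16 to 0.0349 for Gstm2 and from -0.10 to 0.0539 for Gstm5, and the Gstm1 interaction from -0.0021 to 0.14. Gstt2 ran from -0.20 to 0.72 at 90 days and from -0.86 to 0.0593 in the interaction, with the sign turned only without 90-day LY replicate 1. Their causes were not tested. Gsto1 passed between ages in LY mice when replicate 3 of the 90-day black (0.47) or of the 90-day LY mice (0.64) was left out, and in black mice in the former case (-0.61). It also passed in LY mice with a pseudocount of 0.5, a group mean of at least 1 unit, an intensity trend or array weights, 6 of 26 alternatives in all, and Gstt1 passed in black mice in 6 of 26. Among the 91 pathway genes, 90-day calls numbered 1 with a floor of 0.2 (Clic3), beside 0.421% of all probes. With an intensity trend there were 3 (Gsto2, Txnrd2 and Clic3), beside 0.638%, and 2 in the interaction (Gsto2 and Txnrd2), beside 0.631%. Leaving out 1 array gave 0 to 1 at 90 days. The calls were Nr1i2 without 90-day black replicate 3, beside 0.0894%, and Clic3 without 90-day LY replicate 3, beside 0.236%. Calls among these pathway genes were not counted with the pseudocounts, the other filters, array weights or fits within 1 age. Nor were they counted with the methods' t-test. Over all probes the 14 calls at 180 days ranged from 0 (the methods' t-test, adjusted) to 163 (array weights) in adjusted tests and from 1 to 21 with 1 array left out, the 14 at 90 days from 1 (replicate block) to 243 (group mean of at least 1 unit) and from 1 to 74, and the 0 of the interaction rose to at most 223 (the same filter) and 46. Averaging the probes of a gene was not run for the members, which have 1 probe each. Signal near 0.2 units limits Gstt2 at 90 days, and with 3 mice per group the 95% intervals of genotype differences at 180 days ran from -0.22 to 0.20 for Gstm1 and from -0.19 to 0.66 for Gsto1.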
